A study of Mus musculus with 6 samples.

Results

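The shape of mitochondria depends on a small set of proteins that join or divide the organelle. This report gives the expression of 10 of their genes, namely Mfn1, Mfn2, Opa1, Dnm1l, Fis1, Mff, Mief1, Mief2, Yme1l1 and Gdap1, which were picked by name out of the 53110 genes of the deposited table. Each name matched a single row, and all 10 passed the filter of a mean of at least 10 normalized counts that left 16266 genes to be tested.

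RNA-seq was carried out on mouse neural stem cells (NSCs), derived from the embryonic cortex and grown as adherent cultures on Matrigel with bFGF and EGF. Both groups were kept at 21% O2, and no other treatment was given to either. One group was wild type (WT) and the other carried a heterozygous Setd5 mutation made by CRISPR-Cas9 (Setd5+/-), with 3 samples each. All mutant columns carry the name of 1 clone (A3), which is not among the clones named in the study's text. They were assigned to Setd5+/- because their names mark a clone and a table of the study lists the same values as heterozygous. In addition, the sequencing index and lane in the column names are shared within each genotype.

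The number of independent samples has to be settled before the results. Of the values of 1 to 10 reads, 75.1% were even, and the mates of a pair were therefore taken as counted separately. With reads halved to pairs, the 3 samples of a genotype differed by no more than sampling noise, at a chi-square per degree of freedom of 0.961 to 0.986 in the 6 comparisons inside a genotype, against 34.86 to 34.98 in the 9 comparisons across genotypes. On single reads these values were 1.92 to 1.97 and 69.71 to 69.95. The 3 samples of a genotype were therefore treated as parts of 1 library and counted as 1 sample (n = 1 per genotype), so that no difference given here has a replicate check and no SD is given. Genotype, clone, culture, index and lane cannot be told apart. The reads counted on genes numbered 9995980 to 10004948 per WT sample and 7143309 to 7146147 per Setd5+/- sample. Setd5 itself had normalized counts (reads divided by the size factor of the sample) of 2498, 2749 and 2780 in WT and of 2151, 1990 and 2055 in the mutant samples, so that 77.2% of the WT level was left (log2 fold change -0.37). All 12 markers of neural stem cells were detected in both libraries, 7 with a lower and 5 with a higher mean in Setd5+/-. Their summed normalized counts of 79002 to 79124 in WT and 63304 to 64276 in Setd5+/- turned on Fabp7 (36015 and 11490), as the other 11 summed to 43030 and 52361. The 8 neuron markers summed to 10245 to 10609 and 12476 to 12594, which was Map2 for the most part (9983 and 12445). The other 7 summed to 402 and 85, with Dcx at 248 and 26.2 and Syt1 at 64.9 and 5.16, and with Neurod1 and Neurod6 at 0. The 6 markers of the oligodendrocyte lineage summed to 39608 to 40432 in WT and 21528 to 22275 in Setd5+/-, and the 5 of astrocytes to 799 to 818 and 1239 to 1402. The astrocyte markers were mixed. Gfap (17.1 in WT and 263 in Setd5+/-), Aqp4 (57.7 and 187) and S100b (339 and 737) were higher. Aldh1l1 (380 and 147) and Gjb6 (12.7 and 3.18) were lower. The 4 of microglia summed to 79 to 117 and 49 to 70, nearly all of it Csf1r (98.0 and 53.6), while Cx3cr1 and Ptprc were at 0. The 6 mesenchymal markers summed to at most 14 in either library. The part of these differences in the results was not tested. In such bulk samples fewer cells of a type and less RNA per cell cannot be told apart.

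As background, fusion of the outer membranes is carried out by the mitofusins MFN1 and MFN2 and that of the inner membranes by OPA1, all of them large GTPases. Division is carried out by the dynamin-related GTPase DRP1, encoded by Dnm1l, which is drawn from the cytosol to the outer membrane by the adaptors MFF, MIEF1 (MiD51), MIEF2 (MiD49) and FIS1. YME1L1 is an inner membrane protease that cuts OPA1, and GDAP1 is an outer membrane protein whose loss is known from Charcot-Marie-Tooth neuropathy. Neural stem cells and the neurons they form are known to remodel this network as they differentiate.

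The stretches before the starts of 3 of the genes are shown because they stand for the outcomes met below, Mfn1 as the gene with the largest fall, Opa1 as a gene with a smaller fall and Mff as a gene that was higher. The sequences are those of RefSeq on GRCm38.p6, of the plus strand, at chr3:32529232-32529464, chr16:29579084-29579333 and chr1:82724640-82724889, and they end at the base before the annotated start. Capitals mark the letters GGGCGG (the core of a GC box), CCAAT and the core motif of the factor NRF1, read on both strands. The stretch of Mfn1 holds 1 CCAAT and 1 GGGCGG, that of Mff the same, and that of Opa1 1 CCAAT, 3 GGGCGG and 1 NRF1 core.
Mfn1: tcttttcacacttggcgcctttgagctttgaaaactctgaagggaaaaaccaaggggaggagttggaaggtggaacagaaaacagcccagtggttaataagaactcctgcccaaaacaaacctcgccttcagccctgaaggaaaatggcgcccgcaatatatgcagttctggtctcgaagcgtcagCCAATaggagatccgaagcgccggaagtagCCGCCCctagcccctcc
Opa1: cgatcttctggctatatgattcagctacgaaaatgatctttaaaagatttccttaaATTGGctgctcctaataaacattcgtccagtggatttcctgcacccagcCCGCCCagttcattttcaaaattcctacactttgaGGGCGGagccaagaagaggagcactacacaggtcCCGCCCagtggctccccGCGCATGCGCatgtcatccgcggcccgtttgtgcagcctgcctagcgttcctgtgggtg
Mff: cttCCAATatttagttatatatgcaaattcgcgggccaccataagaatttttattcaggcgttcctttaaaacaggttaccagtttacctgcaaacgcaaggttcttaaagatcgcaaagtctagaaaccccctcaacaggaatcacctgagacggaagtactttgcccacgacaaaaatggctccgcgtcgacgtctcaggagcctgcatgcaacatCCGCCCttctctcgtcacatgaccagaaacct

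RefSeq promoters of one fixed length around a start were found for 9 of the 10 genes, as 14 starts in all. The windows of the Mfn2 starts overlap each other, as do those of Mff, so the 14 are not all separate. GGGCGG was present at 12 of the 14 starts and at 1 or more starts of each of the 9 genes, whereas 35.7% of all 32851 promoters held it. Shares over all promoters count single starts and not genes. CCAAT was found at 7 of the 14 (37.4% of all), in 7 different genes. Among these starts the NRF1 core was found only before that of Opa1 (4.6% of all promoters), CACGTG only in the promoter of Mief2 (7.15% of all), and TATAAA in none of the 14 (13.6% of all). None of the capitals overlap in the stretch of Opa1. The median GC content was 56.0% over the 14 member promoters and 52.7% over all. These matches describe letters and do not show binding.

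Of the 10 genes, 6 were lower and 2 higher in Setd5+/- than in WT NSCs at an adjusted p under 0.05 (limma, Benjamini-Hochberg over all tested genes), and 2 did not pass. Such a call compares the reads of 2 libraries and not the genotypes. It was frequent, as 61.3% of all tested genes passed, 30.9% as lower and 30.3% as higher. Lower calls were thus more frequent among the 10 genes than among all genes, and higher calls were not. The background moved with the filter on low values. At a mean of at least 50, 4477 of 12570 tested genes were lower and 4160 higher, beside 6 and 2 of 9 members. The changes were mostly small. The median log2 fold change was -0.27 over the 10 genes and -0.02 over all tested genes, and a log2 fold change of at least 0.5 in size was reached by 1 of the 10 (Mfn1), against 41.5% of all tested genes (19.1% lower and 22.4% higher). The 3 values of one genotype did not overlap with those of the other in 8 of the 10 genes, which was the case for 65.3% of all tested genes (32.9% with lower and 32.4% with higher mutant values).

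**Figure D1:**
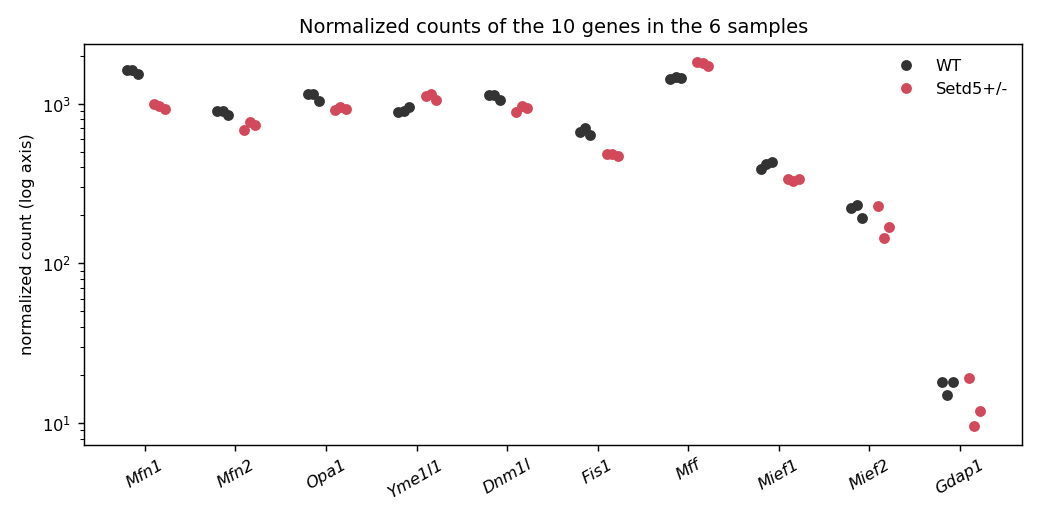
Normalized counts (log axis) of the 10 genes, with 1 point for each of the 3 WT (black) and 3 Setd5+/- (red) samples, which are parts of 1 library per genotype. The points of the genotypes are apart in 8 genes and overlap in Mief2 and Gdap1.

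The genes of fusion were all lower in the mutant library. Mfn1 (ENSMUSG00000027668), on chromosome 3 from 32529465 to 32579239, had normalized counts of 1627, 1634 and 1529 in the WT samples and of 1001, 973 and 926 in the Setd5+/- samples. The lowest WT value thus lay well above the highest mutant value, and the mutant library held 60.5% of the WT level. On the log2 scale the change was -0.72 (95% counting interval -0.82 to -0.63, which here and below covers counting error only; limma, adjusted p = 1.27e-13), and 11.3% of all tested genes had a lower one.

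For Mfn2 (ENSMUSG00000029020), whose gene spans 147873599 to 147904704 of chromosome 4, WT samples had 904, 903 and 852 normalized counts and Setd5+/- samples 688, 773 and 739. The genotypes did not overlap, with 82.7% of the WT level left, a change on the log2 scale of -0.27 (-0.39 to -0.16). Both mitofusins thus fell, but not alike. The fall of Mfn1 was larger by 0.45 on the log2 scale (counting interval of the difference, Mfn1 minus Mfn2, -0.60 to -0.30). Per kilobase of exon, Mfn1 stood at 1.53 times the level of Mfn2 in WT and at 1.12 times in Setd5+/- NSCs, so that its share of the mitofusin sum went from 60.5% to 52.8%.

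Opa1 (ENSMUSG00000038084), on chromosome 16 from 29579334 to 29654884, had 1144, 1147 and 1034 normalized counts in WT and 917, 949 and 932 in Setd5+/- NSCs. All mutant values were below the WT values, at 84.1% of the WT mean (log2 fold change -0.25, -0.35 to -0.14). The difference between Mfn2 and Opa1 was not detectable at this depth (Mfn2 minus Opa1 -0.03, -0.18 to 0.13), whereas Mfn1 fell by more than Opa1 (Mfn1 minus Opa1 -0.48, -0.62 to -0.34). Summed per kilobase, the 3 fusion GTPases went from 572 to 418 normalized counts per kb, and the share of Mfn1 from 45.6% to 37.9%.

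Yme1l1, the protease of OPA1 (ENSMUSG00000026775, chromosome 2, 23156369 to 23199260), went the other way. Its counts were 889, 899 and 956 in WT and 1119, 1148 and 1054 in Setd5+/- NSCs, so that each mutant value was above each WT value. The log2 fold change was 0.28 (0.17 to 0.38), and the difference from that of its substrate was 0.52 (Yme1l1 minus Opa1, 0.38 to 0.67). Per kilobase of exon, the ratio of Yme1l1 to Opa1 was 0.812 in WT and 1.17 in Setd5+/- NSCs. Yme1l1 starts 345 bases from the start of Mastl, a kinase gene of mitosis on the opposite strand, which was also higher in the mutant library (165 against 216 normalized counts, log2 fold change 0.39, 0.16 to 0.63).

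On the side of fission, Dnm1l (ENSMUSG00000022789), the gene of DRP1 on chromosome 16 from 16312230 to 16358959, had 1138, 1129 and 1050 normalized counts in WT and 893, 971 and 945 in Setd5+/- NSCs. The mutant values were all lower, at 84.6% of the WT mean (log2 fold change -0.24, -0.34 to -0.14), a size close to that of Opa1 and Mfn2. Reads of Dnm1l can be shared with the processed pseudogene Gm13719 on chromosome 2, which is 91.1% identical over 2153 bases. Gm13719 had 223, 248 and 210 normalized counts in WT and 229, 218 and 310 in Setd5+/- NSCs and did not pass the test. With the counts of both added, the log2 fold change of the sum was -0.17 (-0.26 to -0.07).

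The 4 adaptors that bring DRP1 to the membrane did not move together. Fis1 (ENSMUSG00000019054, chromosome 5, 136953275 to 136966234) had 670, 701 and 638 normalized counts in WT and 482, 482 and 469 in Setd5+/- NSCs. The genotypes were clearly apart, with 71.4% of the WT level in the mutant library and a log2 fold change of -0.49 (-0.62 to -0.35), after Mfn1 the largest fall among the genes that passed. It exceeded that of Dnm1l by 0.24 (Fis1 minus Dnm1l -0.24, -0.42 to -0.07).

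Mff (ENSMUSG00000026150), on chromosome 1 from 82724890 to 82752394, was higher in the mutant library. It had 1419, 1464 and 1446 normalized counts in WT and 1821, 1804 and 1713 in Setd5+/- NSCs, with no overlap and a log2 fold change of 0.30 (0.22 to 0.38). This value has to be read beside its chromosome, because the 1044 tested genes of chromosome 1 were higher as a whole, with a median of 0.53 and 79.1% of them above 0, and 63.2% of them passed the test as higher. Relative to that median Mff stood at -0.23. Its 10 nearest tested genes had a lower median of 0.24, with 7 of them above 0, and Mff was not below that value. A transcript of the opposite strand, C430014B12Rik, shares 195 bases with its exons (2.0% of them) and was higher too, at 113 and 144 normalized counts, and reads of the strands may be mixed since the counting by strand is not given in the sources used here.

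Mief1 (ENSMUSG00000022412, chromosome 15, 80234018 to 80253371) had 390, 419 and 432 normalized counts in WT and 337, 327 and 337 in Setd5+/- NSCs. The mutant values were lower without overlap, with a log2 fold change of -0.31 (-0.48 to -0.14). Its paralog Mief2 (ENSMUSG00000018599, chromosome 11, 60728398 to 60732951) had 221, 233 and 193 in WT and 230, 145 and 169 in Setd5+/- NSCs. Here the genotypes overlapped through the first mutant sample, and the log2 fold change of -0.27 (-0.50 to -0.04) did not pass the test across all genes (limma, adjusted p = 0.0856). Without that sample it was -0.45 and passed (limma, adjusted p = 0.00497). Without the second mutant sample it was -0.12 and did not pass (limma, adjusted p = 0.441). As the samples are parts of 1 library, neither run is a check by replicates. The paralogs did not differ in their change beyond counting error (Mief1 minus Mief2 -0.04, -0.33 to 0.25).

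The make-up of the adaptors shifted with these changes. Per kilobase of exon, their sum went from 669 to 569 normalized counts per kb. Fis1 made up 58.4% of it in WT and 49.0% in Setd5+/- NSCs, and Mff 22.1% and 32.0%. The shares of Mief1 (7.63% and 7.24%) and Mief2 (11.9% and 11.7%) stayed close. The change of Mff exceeded that of Fis1 by 0.79 (0.63 to 0.95), that of Dnm1l by 0.54 (0.41 to 0.67) and that of Mief1 by 0.61 (0.42 to 0.80). When the longest annotated transcript was taken as the length, Fis1 went from 56.9% to 46.0% and Mff from 29.7% to 41.5%.

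**Figure D2:**
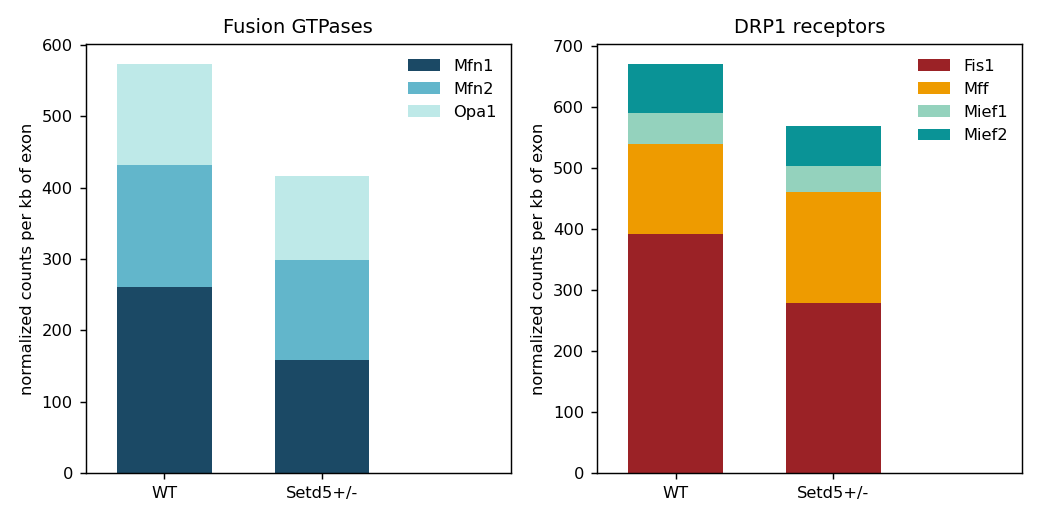
Summed levels of the 3 fusion GTPases (left) and the 4 adaptors of DRP1 (right) in the WT and the Setd5+/- library, as normalized counts per kilobase of exon, with 1 library per bar and therefore no error bar. The fusion sum went from 572 to 418 and the adaptor sum from 669 to 569, and Mff is the one segment that grew.

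Gdap1 (ENSMUSG00000025777), the other gene on chromosome 1 (17145362 to 17164271), was barely expressed. Its normalized counts were 18.2, 14.9 and 18.2 in WT and 19.1, 9.53 and 11.9 in Setd5+/- NSCs, from 62 and 34 reads in all. The genotypes overlapped, and a difference was not detectable at this depth (log2 fold change -0.37, -1.21 to 0.47). Gdap1 was 0.90 lower (-0.90) than the median of 0.53 of its chromosome, which lay above the interval. The median of its 10 nearest tested genes, 0.20, lay inside it. The interval covers counting error only, and whether Gdap1 is low for its place was not tested.

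**Figure D3:**
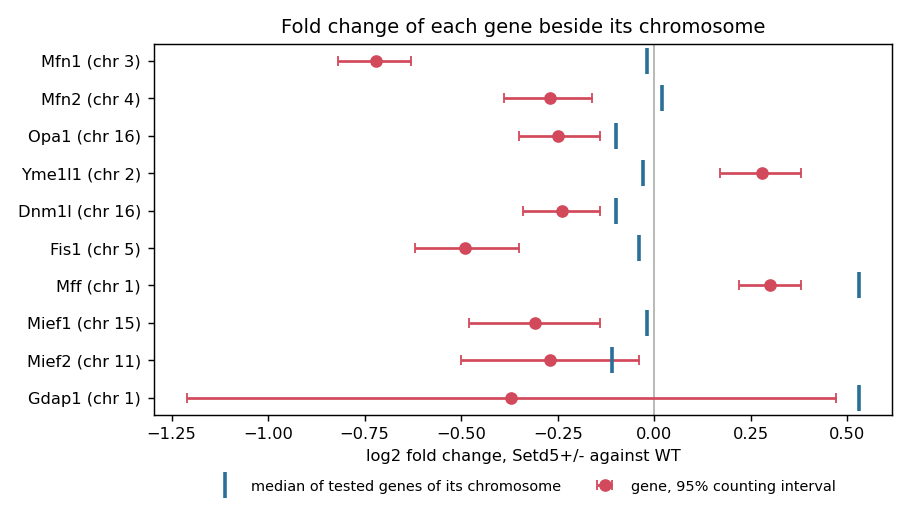
Log2 fold change of Setd5+/- against WT for the 10 genes (red points, 95% counting intervals) beside the median of the tested genes of the same chromosome (blue marks). Mfn1 at -0.72 lies farthest below its chromosome among the genes that passed, and Mff at 0.30 is above 0 but below the 0.53 of chromosome 1.

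Outside chromosome 1, 6 of the other 8 genes were lower past the threshold and 1 was higher. Leaving out Mff, called higher, and Gdap1, which did not pass, could not change the number of lower calls. The shares over all tested genes, 30.9% lower and 30.3% higher, include chromosome 1, and those outside it were not computed. The medians of the chromosomes of these 8 genes lay between -0.11 (chromosome 11, Mief2) and 0.02 (chromosome 4, Mfn2). Relative to its chromosome, Mfn1 stood at -0.71, Fis1 at -0.44 and Yme1l1 at 0.30, while Opa1 and Dnm1l, both on chromosome 16 with its median of -0.10, stood at -0.15 and -0.14.

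Levels between genes were compared per kilobase of exon. In WT NSCs Fis1 was highest with 391 normalized counts per kb, followed by Mfn1 with 261, Dnm1l with 213, Mfn2 with 171, Mff with 148, Opa1 with 141, Yme1l1 with 114, Mief2 with 79.4, Mief1 with 51.1 and Gdap1 with 2.21. Of these neighbours, Mff and Opa1 did not differ beyond counting error (ratio 1.05, 0.992 to 1.11). In Setd5+/- NSCs Fis1 remained first with 279, but Mff with 182 and Dnm1l with 180 came next (ratio 1.01, 0.946 to 1.09), ahead of Mfn1 with 158. Mfn2 with 141 and Yme1l1 with 138 could not be separated either (ratio 1.02, 0.941 to 1.11), ahead of Opa1 with 118, Mief2 with 66.8, Mief1 with 41.2 and Gdap1 with 1.75. The order rests in part on the length used. With the longest transcript Mff came next to Fis1 in both libraries, with 368 and 454 per kb. It did not differ from Mfn1 in WT (350), while in Setd5+/- NSCs Dnm1l (236) and Yme1l1 (235) lay between Mff and Mfn1 (212).

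A wider list of 34 genes that act on mitochondrial shape and movement was then described. Of these, 33 were tested, and 18 were lower and 6 higher past the threshold, where the background was 30.9% and 30.3%. Their median log2 fold change was -0.29, beside -0.02 over all tested genes. By at least 0.5, 9 were lower and 5 higher, where the background was 19.1% and 22.4% (41.5% in either direction). Leaving out the genes of chromosome 1, Trak2 (0.60) and Dnm3, 18 of 31 were lower and 5 higher past the threshold. The background of 30.9% and 30.3% includes chromosome 1, and that outside it was not computed.

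Among the proteases, the stress-activated OPA1 protease Oma1 (119 against 89.3 normalized counts, log2 fold change -0.41, -0.73 to -0.08) and the m-AAA subunit Afg3l2 (-0.20, -0.34 to -0.06) fell. Spg7, the partner of AFG3L2 in that protease, rose from 1005 to 1256 normalized counts (0.32, 0.23 to 0.42). The prohibitins, which form a scaffold in the inner membrane, were lower, Phb from 194 to 80.2 normalized counts (-1.35, -1.66 to -1.03) and Phb2 from 1317 to 967 (-0.45, -0.54 to -0.35).

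The paralogs Miga1 and Miga2, whose proteins help fusion of the outer membranes, moved in opposite directions. Miga1 rose from 373 to 609 normalized counts (log2 fold change 0.71, 0.56 to 0.86) and Miga2 fell from 783 to 438 (-0.84, -0.98 to -0.70). Slc25a46 fell as well (-0.48, -0.63 to -0.34). The phospholipase gene Pld6, with 2.76 and 0.794 normalized counts, was too low to be tested. Of the genes that control mitofusins or DRP1 through ubiquitin, March5 (-0.12, -0.29 to 0.04) and Mul1 (-0.15, -0.34 to 0.05) did not pass, and Usp30, a deubiquitinase of the outer membrane, rose from 353 to 515 normalized counts (0.55, 0.39 to 0.70).

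Among the dynamins, Dnm2 had 1439 and 1396 normalized counts and did not pass (log2 fold change -0.04, -0.13 to 0.04), Dnm1 fell from 73.2 to 43.7 (-0.73, -1.18 to -0.29), and Dnm3, at 126 and 103, did not pass (-0.32, -0.63 to -0.01). The largest changes of the list were those of Inf2, Gdap1l1 and Phb. Inf2, a formin that builds actin where mitochondria are constricted, rose from 67.4 to 336 normalized counts (2.35, 2.07 to 2.64), while Spire1, which acts with it, fell from 1231 to 627 (-0.97, -1.09 to -0.86; chosen after its value was seen). Gdap1l1, the paralog of Gdap1, fell from 152 to 41.7 (-1.84, -2.26 to -1.42). The other genes at the ends of the list were Atad3a (-1.08, -1.27 to -0.90) of the inner membrane and, on the higher side, the fission factor Mtfr1 (0.75, 0.51 to 0.99).

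**Figure D4:**
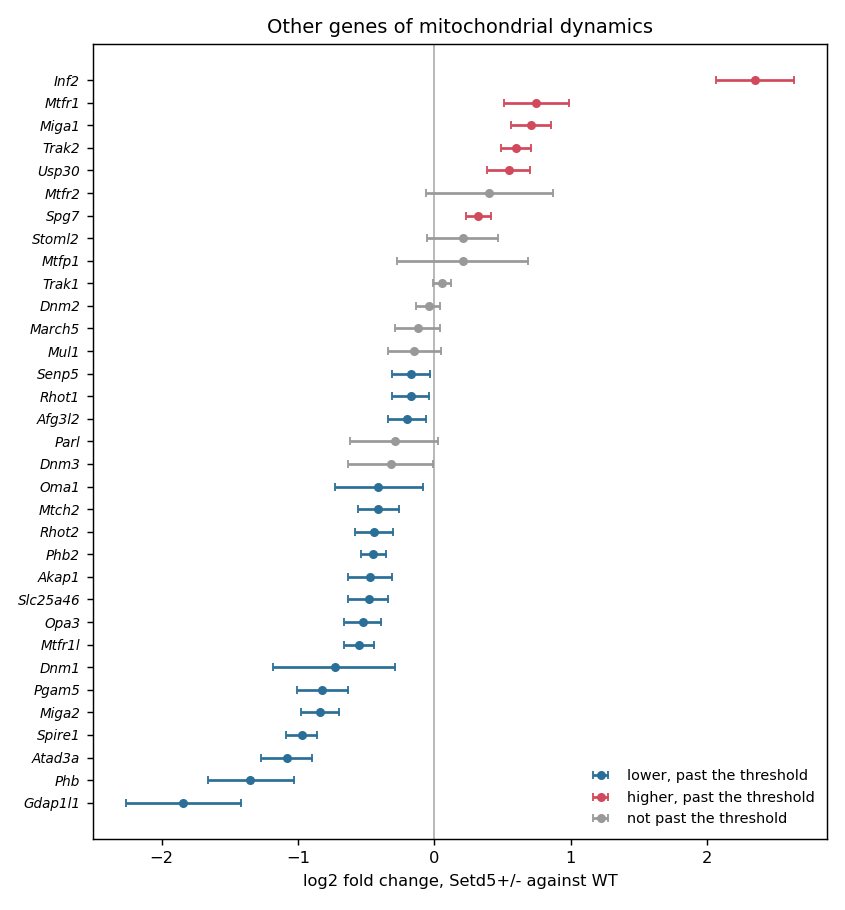
Log2 fold change of Setd5+/- against WT for the 33 tested genes of the wider list, in order of size, with 95% counting intervals and colours for the call of the test. Of these genes 18 are lower and 6 higher past the threshold, from Gdap1l1 at -1.84 to Inf2 at 2.35.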

How the data were processed

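The members, lists and tests were chosen with earlier results of these data known. The authors trimmed reads with Trimmomatic, aligned them with Bowtie2 to mm10, counted them on genes and divided the counts by DESeq2 size factors; the counting program is not given in the sources used here. The deposited normalized counts had lost their decimal points, so each was put back at the place that gives whole reads in that sample (in 1116 genes the deposited mean was needed as well). The columns of the authors' own comparison (log2 fold change, its error, statistic and p-values) were not used.

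Genes with a mean of at least 10 were tested with limma 3.58.1 (R 4.3.3, trend) on log2(normalized count + 1), with Benjamini-Hochberg adjustment at 0.05. Both steps were tested on simulated data. Counting intervals set the variance of reads at 1.945 times their mean, the average found within genotypes, because the mates of a pair were mostly counted as separate reads; for the noise test reads were halved to pairs. Positions and exon lengths are those of GENCODE M21 (GRCm38, the same build as mm10). Copies of at least 200 bases and 90% identity were searched with BLAST+ 2.17.0. All 10 members were named. Of the wider list, the 3 lowest and 3 highest genes and preset partners were named. Spire1, Phb2 and Trak2 were named in addition, outside that rule.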

Additional observations from a re-analysis of the deposited data

How the results depend on the processing

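Of the 10 genes, the 8 that passed kept their direction and passed under every alternative run (other pseudocounts of 0.5 and 4, no filter or a mean of at least 50, other scalings, the replicate block, each sample left out), with log2 fold changes between -0.76 and -0.68 for Mfn1 and between 0.26 and 0.34 for Mff. All runs compare the same 2 libraries. Leaving out a sample removes only a part of 1 library, so these runs are no check by replicates. Gdap1 passed under none of those it entered, from -0.63 to -0.16, and was not tested at a mean of at least 50. Mief2 ranged from -0.45 to -0.12, adjusted p 0.00497 to 0.441, and passed without the first Setd5+/- sample and with upper quartile scaling (-0.31, limma, adjusted p = 0.05). Requiring a log2 fold change of 0.5 in place of the test left 1 of the 10 genes and 14 of the wider list, in place of 8 and 24. Of all tested genes, 41.5% reached that size. With samples left out, 8 to 9 members, 21 to 24 genes of the wider list and 9140 to 9589 of all genes passed, in place of 9963. With the replicate number as a replicate block 8, 24 and 9946 passed, and it changed no call of a member. The numbers are no pairing of samples, as deviations of same-numbered samples correlated at -0.007 to 0.005. edgeR with TMM and DESeq2, planned as alternatives on the recovered reads, were not run. Depth limits Gdap1, with 62 and 34 reads.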

Other observations

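The 10 tested genes nearest to each member, 5 on each side, give its surroundings as values. Around Mfn1 their median log2 fold change was -0.25, with 3 of 10 above 0. Around Mfn2, which fell, the median was 0.81 and 9 of 10 were above 0. Around Mief1 it was -0.59 with 2 of 10 above 0, and around Fis1, which fell, it was 0.19 with 7 of 10 above 0. Around the members of chromosome 1 the medians were 0.24 for Mff and 0.20 for Gdap1.

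Yme1l1 has a near-identical copy of 207 bases, the pseudogene Gm14897 of chromosome X, at 20.4 (WT) and 20.6 (Setd5+/-) normalized counts. Stretches of 206 to 208 bases of Mfn1 transcripts are 90.4% to 90.8% identical to transcripts of D6Wsu163e (179 and 156 normalized counts) and Gm10277 (listed at 0). Mief1 shares 213 bases of its exons (2.6% of them) with AC140267.1, a gene of the same strand, and Dnm1l shares 243 bases (4.7%) with the antisense Gm49521.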
